A study of Mus musculus with 12 samples.

Results

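The level of 10 adhesion genes was followed in cDC1 (type 1 conventional dendritic cells), which cross-present antigen to CD8 T cells. They are the integrin subunits Itga1, Itgae, Itgal, Itgam, Itgax, Itgb2 and Itgb7, the immunoglobulin-like molecules Icam1 and Esam, and the cadherin Cdh1. These 10 of 53458 annotated genes were taken by symbol, and their 45 transcript rows, of 136288, were summed to genes. RNA came from cDC1 of mouse inguinal lymph nodes. The groups combine a subcutaneous KPC tumor (cells of a mouse pancreatic cancer model) and an agonist of the receptor CD40. Tumor-CD40 had the tumor and the agonist, Tumor-NoCD40 the tumor alone, NoTumor-CD40 the agonist alone and NoTumor-NoCD40 neither, with 3 libraries each, numbered 1 to 3 in the order of deposit. Libraries of the same number share a date-like title prefix, except NoTumor-NoCD40 library 3, whose prefix is its own. Dose, times, strain, age, sex and sort gates are not given in the sources used here. Nor do they say that replicate libraries are separate mice, so the spread behind each p-value is that among these 12 libraries and may be technical.

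An integrin is a pair of an alpha and a beta subunit that reaches the cell surface only as a pair and holds a cell to matrix or to another cell. On dendritic cells the Itgb2 integrins bind Icam1 and complement, the Itgb7 integrins bind E-cadherin and mucosal vessel ligands, and Itga1 pairs with Itgb1 to bind collagen. Icam1 on a mature dendritic cell is the counter-receptor of the T cell's Itgal-Itgb2 pair and steadies the contact in which the T cell is activated.

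Library totals of the expected counts ran from 22855143 to 27163393. All 12 cDC1 markers averaged at least 1 CPM (counts divided by library size, itself normalized for composition). So did all markers of B cells, T cells and NK cells used here, so that this level does not check the labelled cell type. Xcr1 was present in every library, between 49.5 and 779.8 CPM. The libraries differed within groups in the summed level of 13 markers of mature dendritic cells (Ccr7, Fscn1 and others), from 6964 to 36250 CPM over the 12 libraries. Markers of B cells (13 genes) summed to 828 to 2467 CPM in Tumor-CD40 and to 88.1 to 304 CPM in the other groups. The part of this difference in the values below was not tested. A lower level in bulk RNA can mean fewer cells of a type or less RNA per cell, and these cannot be told apart.

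Levels can be compared between genes only per length, for which the TPM (a measure scaled by transcript length and to a common total) of each gene's most counted protein-coding transcript were used. By this measure Icam1 was the most abundant of the 10, with 102 to 379 TPM and a median of 163 TPM over the 12 libraries. Every library held more Icam1 than any library held of another member. Itgb2, the common beta subunit of the leukocyte integrins, had a median of 39.6 TPM, Itgax (CD11c, the alpha subunit by which dendritic cells are usually recognized) 33.5 TPM and Itgb7 27.8 TPM, and their ranges overlapped almost wholly (22.6 to 77.1, 13.1 to 59.1 and 12.5 to 59.5 TPM). Itgae (CD103, which pairs with Itgb7 and marks many tissue cDC1) had a median of 14.9 TPM and Itgal (CD11a, which pairs with Itgb2) one of 12.6 TPM, although the Itgal transcript used held only 57.8% of that gene's counts. Summed over all transcripts, Itgal had more TPM than Itgae in every library (8.35 to 37.0 against 4.37 to 34.6 TPM). The order of Itgae and Itgal therefore depends on the transcripts taken. Esam, a junction molecule of vessel walls that some dendritic cells also carry, followed with 8.38 TPM. Its range of 3.85 to 20.9 TPM overlapped those of Itgae (4.10 to 33.4 TPM) and Itgal (2.77 to 20.3 TPM). Itga1 lay below these, with a median of 1.41 and a range of 0.526 to 2.71 TPM. Itgam (CD11b, the alpha subunit of macrophages, neutrophils and the other conventional dendritic cells) and Cdh1 (E-cadherin) lay lowest, with medians of 0.215 and 0.199 TPM and highest values of 1.03 and 0.801 TPM. They had between 37 and 185 counts and between 16 and 148 counts in a library.

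**Figure D1:**
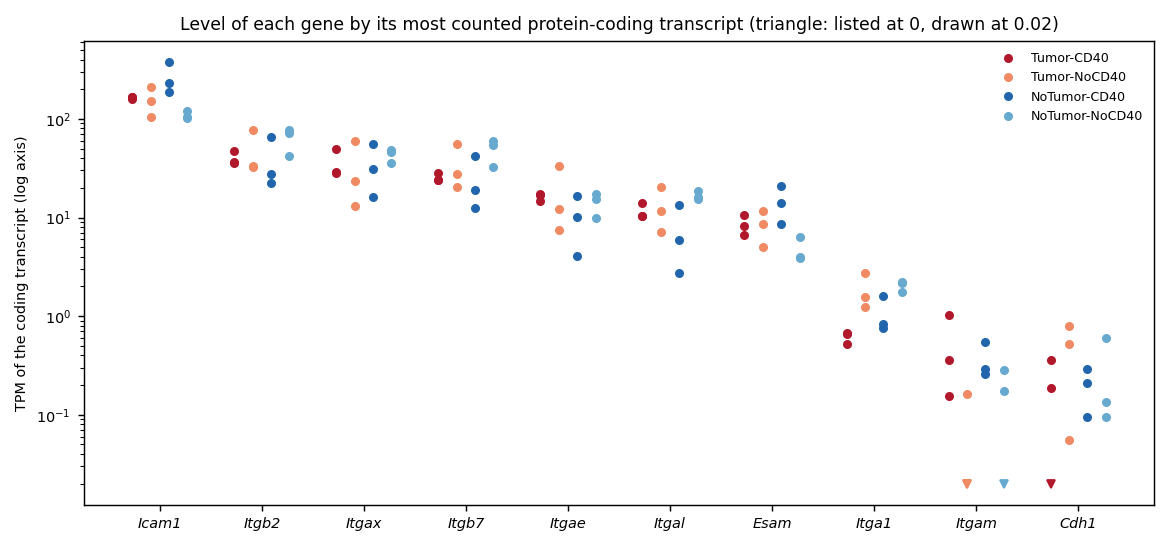
TPM of the most counted protein-coding transcript of each of the 10 genes on a log axis, with 1 point per library, groups in color and triangles at the foot for libraries listed at 0. The genes are ordered by median; Icam1 lies between 102 and 379 TPM, above every library of the others, and Itgam and Cdh1 lie at or below 1.03 TPM.

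The question put by the design is how the agonist and the tumor alter these genes, alone and together. All 10 passed the filter on low counts, and each was read from an edgeR quasi-likelihood fit over 18095 genes, with Benjamini-Hochberg adjustment over all of them and a threshold of 0.05 on the adjusted p. With the agonist in mice without tumor, 2 of the 10 passed the threshold (Icam1 and Esam, both higher), against 1.44% of all genes tested, or 1.36% counted in the upward direction. With the agonist in tumor-bearing mice 1 of 10 passed (Itga1, lower), against 0.685% of all genes, or 0.0442% in the downward direction. Averaged over both tumor states, the agonist difference again passed for Itga1 alone (lower), against 2.51% of all genes and 0.343% in that direction. The tumor comparisons gave 0 of 10 without the agonist, where the background was 0%, and 0 of 10 with it, where the background was 0.199%. The interaction, the agonist difference with tumor minus that without, also gave 0 of 10 against 0%. DESeq2 called 0 of 10 in these 3 comparisons as well. Earlier results of these data were known when the 10 genes were picked. Their shares, here and below, therefore cannot test for an excess over the background.

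At an unadjusted p under 0.05 the counts of the 10 were 6 for the agonist without tumor (background 18.4%), 2 for the agonist with tumor (9.96%), 6 for the average (17.5%), 1 for the tumor without agonist (5.82%), 3 for the tumor with agonist (9.32%) and 2 for the interaction (9.8%). The median log2 fold change of the 10 was -0.46 for the agonist without tumor and -0.24 with tumor, against -0.04 and -0.02 over all genes tested. Of the 10, 3 lay above 0 without tumor and 4 with tumor. The 2 agonist comparisons share no library; each shares libraries with the tumor comparisons and with the average.

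**Figure D2:**
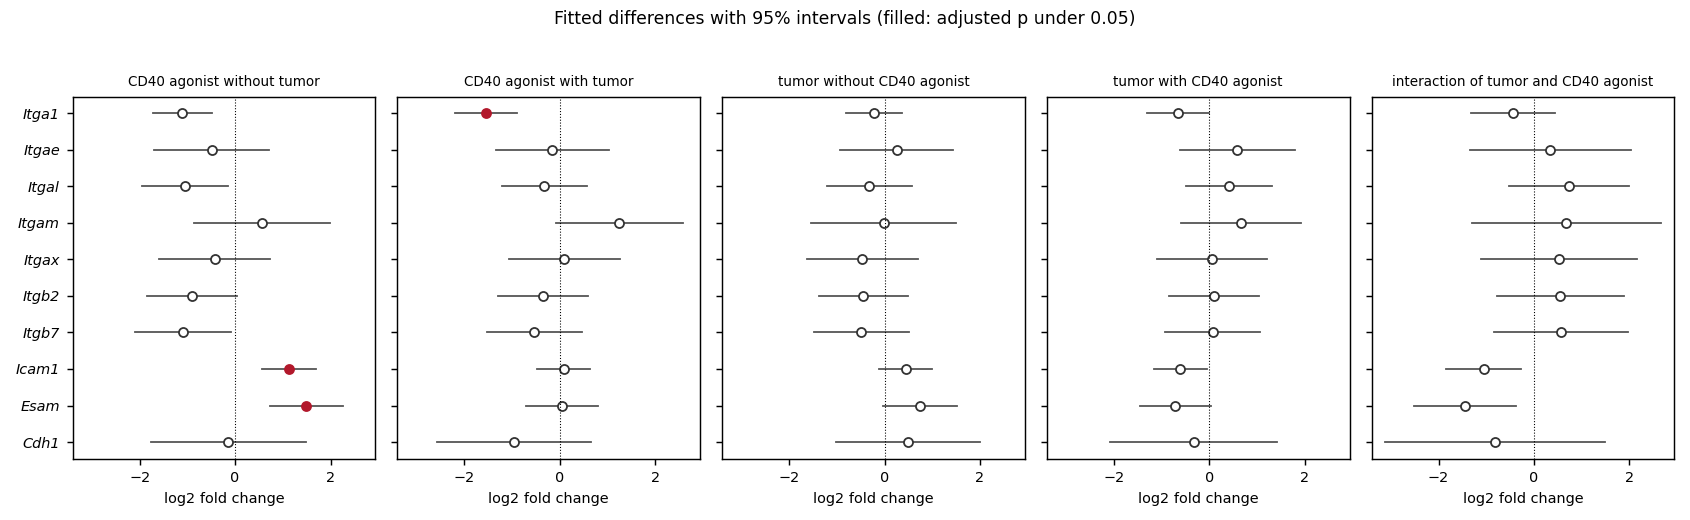
Fitted log2 fold changes of the 10 genes (points) with 95% intervals (lines, from the standard error and 8 residual degrees of freedom) in 5 comparisons, each with its tested condition over its baseline. Filled points have an adjusted p under 0.05: Icam1 and Esam for the agonist without tumor, and Itga1 for the agonist with tumor.

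Itga1, the alpha subunit of a collagen-binding integrin, fell with the CD40 agonist: in tumor-bearing mice its fitted level with the agonist was 0.342 times that without. It had 10.9, 10.03 and 11.2 CPM in the Tumor-CD40 libraries, against 26.7, 28.4 and 38.8 CPM in the Tumor-NoCD40 libraries. In mice without tumor it had 14.3, 25.2 and 11.1 CPM with the agonist, against 39.9, 32.6 and 36.7 CPM without it. All agonist libraries lay below all libraries without agonist, in both tumor states, and NoTumor-CD40 library 2 was the highest of the agonist libraries. The groups averaged 10.7 ± 0.614 CPM in Tumor-CD40, 31.3 ± 6.57 in Tumor-NoCD40, 16.9 ± 7.39 in NoTumor-CD40 and 36.4 ± 3.69 in NoTumor-NoCD40 (SD, n = 3 each).

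The log2 fold change of Itga1 was -1.55 ± 0.28 with tumor (SE, adjusted p = 0.0204, edgeR) and -1.10 ± 0.27 without tumor, where it missed the threshold (adjusted p = 0.0573). Of 10 other settings 2 passed it without tumor (DESeq2 and no filter on low counts), with adjusted p-values from 0.0103 to 0.359 over the 10. Averaged over the tumor states it was -1.33 ± 0.19 (adjusted p = 0.0023, edgeR). The difference between the tumor states was -0.44 on the log2 scale, with a 95% interval from -1.33 to 0.44, and did not pass (adjusted p = 0.711).

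The averaged call of Itga1 held with each of the 12 libraries left out in turn, with values from -1.53 to -1.21. The call with tumor held in 7 of the 12 leave-out fits. It was lost without library 1, 2 or 3 of Tumor-CD40 (adjusted p = 0.0693, 0.0787 and 0.0928) and without library 1 or 3 of Tumor-NoCD40 (adjusted p = 0.0612 and 0.0844), with values from -1.66 to -1.35 over all 12. The call without tumor was gained without NoTumor-CD40 library 2 (-1.51, adjusted p = 0.00557) and without Tumor-NoCD40 library 2 or 3 (adjusted p = 0.036 and 0.0475). The titles carry a date-like prefix, whose meaning the labels do not state and which libraries of the same number share in the 2 tumor groups. Within the 3 prefixes the log2 ratio of Itga1 was -1.29, -1.50 and -1.79 with tumor, and with the prefix as a block the value was -1.55 (adjusted p = 0.0285), in a fit that called 229 genes in that comparison against 124 without the block. Within the 2 prefixes shared by the groups without tumor it was -1.48 and -0.37.

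Summed markers of Langerhans cells were also lower with the agonist in tumor-bearing mice. The sum of 3 such genes (Cd207, Epcam and Cldn1) was 33.8, 49.1 and 36.2 CPM in Tumor-CD40, against 103.7, 150.8 and 70.6 CPM in Tumor-NoCD40. In mice without tumor it was 55.5, 182.4 and 31.8 CPM in NoTumor-CD40, against 166.2, 237.2 and 205.5 CPM in NoTumor-NoCD40. Within it Cd207 (langerin, which dermal cDC1 also carry) had 5.32, 3.14 and 3.85 CPM in Tumor-CD40, against 43.9, 82.9 and 15.6 CPM in Tumor-NoCD40. Both the sum and Cd207 separated the tumor groups without overlap. Epcam, in the same sum, overlapped, with 4.93, 3.88 and 4.68 CPM in Tumor-CD40, against 13.1, 3.39 and 14.6 CPM in Tumor-NoCD40. Cldn1, the remainder and most of the sum in Tumor-CD40, overlapped as well, so that of the 3 genes Cd207 alone separated the tumor groups. NoTumor-CD40 library 2, the agonist library with the most Itga1, also had the highest sum among agonist libraries. Within the other groups the orders differed. The Tumor-CD40 library with the highest sum had the least Itga1 of its group (10.03 CPM). The Tumor-NoCD40 library with the lowest sum had the most Itga1 of its group (38.8 CPM). In NoTumor-NoCD40 the order of the sum was the reverse of that of Itga1. The sum does not tell Langerhans cells from other cells with Cd207, and the part of such cells in the Itga1 difference was not tested.

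Itga1-201, the coding transcript of 10967 bases, held 90.7% of the Itga1 counts. On its counts alone the call with tumor was kept (-1.57, adjusted p = 0.0431) and so was the averaged call (-1.31, adjusted p = 0.00547). On log2(TPM + 1) with limma both calls were lost, at -0.89 (adjusted p = 0.33) with tumor and -0.80 (adjusted p = 0.0846) averaged. On log2(TPM + 0.1) they were lost as well, at -1.37 (adjusted p = 0.376) with tumor and -1.22 (adjusted p = 0.0981) averaged. In an edgeR fit of the 2 tumor groups alone the call was also lost (-1.55, adjusted p = 0.0589). The tumor itself gave -0.66 ± 0.29 for Itga1 in agonist-treated mice (adjusted p = 0.524, edgeR) and -0.21 ± 0.26 in untreated mice (adjusted p = 0.854). By root mean square difference of centred log2 CPM over the 12 libraries, among 10221 genes, the genes most like Itga1 in pattern were Bahcc1 (0.259) and Gcsh (0.402), against a median of 0.791 over those genes. Its partner Itgb1 had 587, 534 and 465 CPM in Tumor-CD40, against 628, 521 and 594 CPM in Tumor-NoCD40, and these groups overlapped. Without tumor Itgb1 had 688, 586 and 703 CPM with the agonist, against 561, 517 and 405 CPM without it, with all agonist libraries above the others.

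Icam1, the ligand of the leukocyte integrins, rose with the agonist in mice without tumor to 2.19 times its level without agonist. It had 1152, 849 and 1514 CPM in the NoTumor-CD40 libraries, against 609, 530 and 462 CPM in the NoTumor-NoCD40 libraries. In tumor-bearing mice it had 826, 771 and 703 CPM with the agonist, against 766, 499 and 912 CPM without it. The groups without tumor did not overlap, and those with tumor overlapped wholly, since Tumor-NoCD40 libraries 2 and 3 held the lowest and the highest value of the 6. The log2 fold change was 1.13 ± 0.24 without tumor (SE, adjusted p = 0.038, edgeR) and 0.08 ± 0.24 with tumor (adjusted p = 0.957). The interaction was -1.06 ± 0.34, with an unadjusted p of 0.00822 and an adjusted p of 0.495 over all genes (edgeR), so that a difference between the tumor states was not shown.

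**Figure D3:**
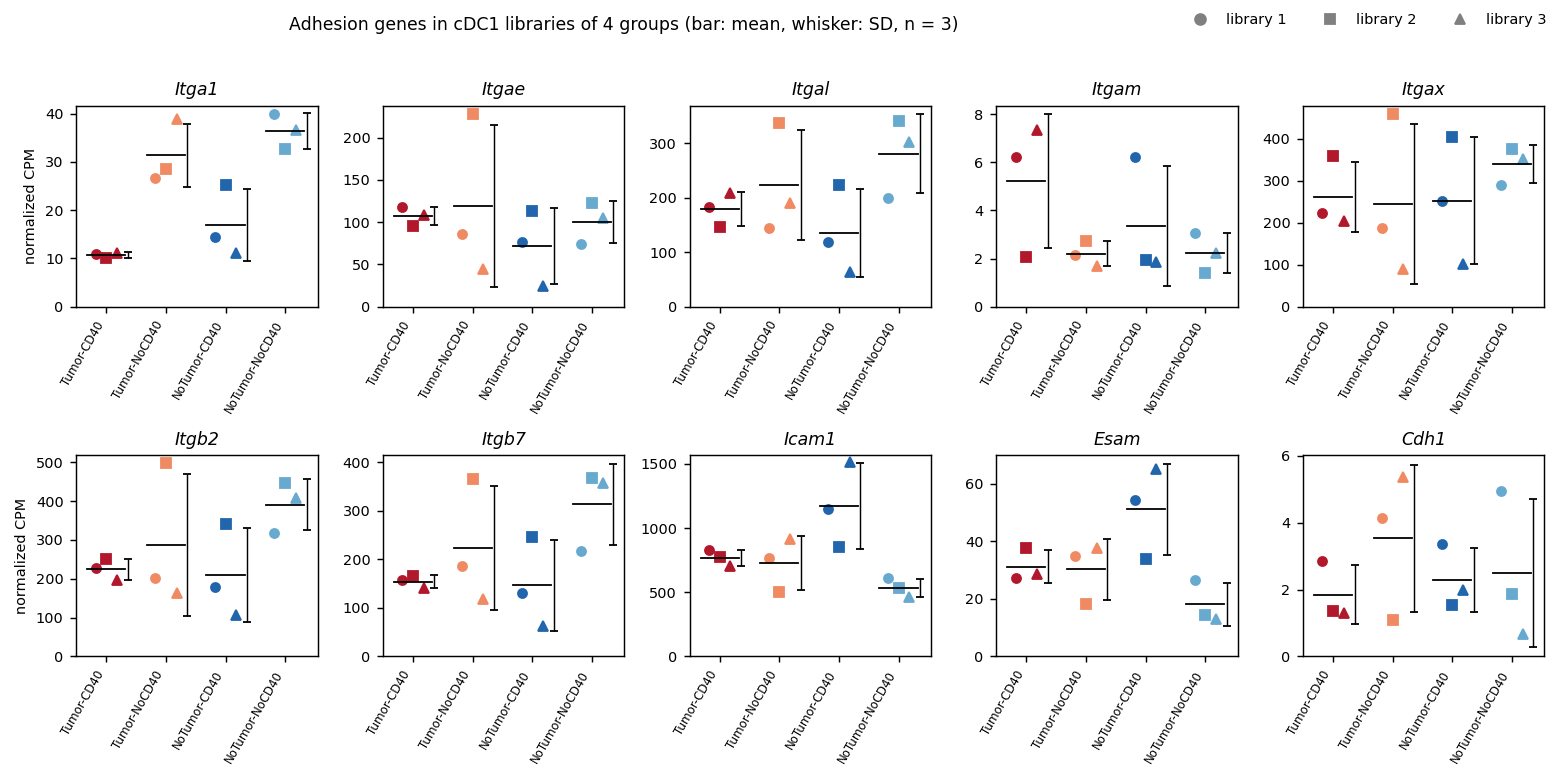
Normalized CPM of the 10 genes by group, with 1 symbol per library (numbers as in the text), the mean as a bar and the SD as a whisker. Itga1 lies at 25.2 CPM or less in every agonist library and at 26.7 CPM or more in every library without agonist; Icam1 and Esam are highest in NoTumor-CD40.

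Under the agonist, Icam1 was lower with than without tumor in all libraries, 703 to 826 CPM in Tumor-CD40 and 849 to 1514 CPM in NoTumor-CD40, and this difference of -0.61 ± 0.24 did not pass (adjusted p = 0.474, edgeR). Counted by overlap, 3 of the 10 genes (Icam1, Esam and Itga1) separated the groups for the agonist without tumor, against 23.2% of all genes tested. The count was 1 of 10 (Itga1) for the agonist with tumor (background 11.9%), 0 of 10 for the tumor without agonist (8.98%) and 1 of 10 (Icam1) for the tumor with agonist (12.9%).

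The upstream sequence of Icam1 is shown beside that of Itga1 because Icam1 rose with the agonist without tumor and Itga1 fell with it in tumor-bearing mice and in the average, with no comparison in which both passed. CD40 is known to act through NF-kB. Both windows hold the 250 bases before the RefSeq start on GRCm38.p6, and 5 of the 10 genes had a window in that table. In the Icam1 window, at chr9:21015690-21015939 on the plus strand, the capitals mark GGAANTTCC and TTCNNNGAA. GGAANTTCC, the form of the NF-kB site known from the human ICAM1 promoter, was added after the sequence had been seen and stands at bases -153 to -145, counted back from the base before the start. TTCNNNGAA, the GAS element bound by STAT factors, stands at -42 to -34. The Itga1 window, at chr13:115101965-115102214 on the minus strand, held neither and is therefore in lower case. The windows of Itgam, Itgax and Itgb7, which passed in no comparison, held neither as well. Esam, the other member that rose, had no window.
Icam1: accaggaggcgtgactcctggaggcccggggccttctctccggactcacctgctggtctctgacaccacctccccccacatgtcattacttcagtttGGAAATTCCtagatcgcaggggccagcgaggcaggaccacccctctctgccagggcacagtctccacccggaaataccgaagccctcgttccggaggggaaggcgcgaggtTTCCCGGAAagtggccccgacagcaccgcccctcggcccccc
Itga1: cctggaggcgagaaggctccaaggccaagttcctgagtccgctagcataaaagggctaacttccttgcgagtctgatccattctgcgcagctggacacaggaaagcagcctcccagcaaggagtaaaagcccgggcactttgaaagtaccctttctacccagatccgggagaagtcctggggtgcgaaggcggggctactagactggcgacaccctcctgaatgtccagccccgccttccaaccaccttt
Both strands were searched. GGAANTTCC occurred in 0.813% of the 32851 promoter windows of the same length and TTCNNNGAA in 7.02%. Because GGAANTTCC was added after the sequence had been seen, its share cannot measure how unusual the match is. The longer NF-kB consensus (9.55% of windows) and the core of the interferon response element (2.98%) had no match in either window, and GGGCGG (32.7%) had a match on the minus strand of the Icam1 window at -17 to -12. A match is a string of letters and not a site shown to be bound, and the 2 named motifs do not overlap each other.

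The call of Icam1 lay close to the threshold. It held in 3 of the 12 leave-out fits (without NoTumor-CD40 library 2 and without Tumor-NoCD40 library 2 or 3) and was lost with any of the other 9 left out, with values from 0.91 to 1.33 and adjusted p-values up to 0.204. Leaving out a Tumor-CD40 library, which the comparison does not use, kept the value at 1.13 to 1.14. The call was still lost there (adjusted p of 0.0596 to 0.0609, edgeR). Of 10 other settings 5 kept the call, among them DESeq2 (adjusted p = 0.000451) and edgeR with no filter on low counts (adjusted p = 0.0071). It was also kept on the coding transcript alone (1.15, adjusted p = 0.0376). The call was lost on log2(TPM + 1) with limma (1.20, adjusted p = 0.118) and in an edgeR fit of the 2 groups alone (adjusted p = 0.0697). Within the 2 shared title prefixes the log2 ratio of Icam1 was 0.92 and 0.68, and with the prefix as a block its call was lost (0.90, adjusted p = 0.103). Mlf2 and Tnip1 had the patterns most like Icam1 over the 12 libraries, with root mean square differences of 0.0706 and 0.0929, against a median of 0.584.

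Within groups the order of Icam1 largely followed that of the markers of mature dendritic cells. In NoTumor-CD40 the 13 markers summed to 27540, 16250 and 36250 CPM in libraries 1, 2 and 3, the same order as Icam1, against 18790, 10640 and 6964 CPM in NoTumor-NoCD40. In tumor-bearing mice they summed to 18600, 14250 and 14340 CPM in Tumor-CD40, against 25360, 7892 and 30520 CPM in Tumor-NoCD40. In 4 of 4 groups the library with most of these markers had the most Icam1, and 11 of the 12 pairs of libraries of a group had the same order in both. Such pairs share libraries and are not independent, and how often other genes had this order was not counted. Of the 13 markers, 3 rose with the agonist without tumor and 0 with tumor (edgeR, adjusted p under 0.05). Over all genes tested, 1.36% rose without tumor and 116 of 18095 with tumor. The median log2 fold changes of the markers were 1.08 and -0.19. The part of these cells in the Icam1 difference was not tested.

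**Figure D4:**
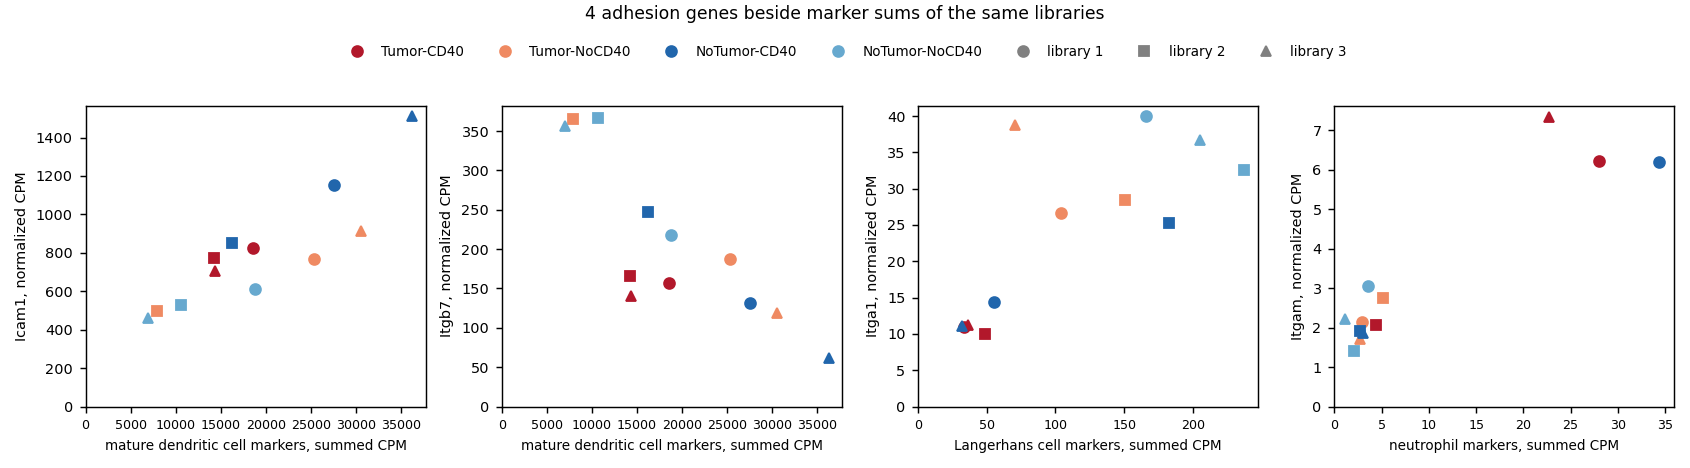
Normalized CPM of Icam1, Itgb7, Itga1 and Itgam against the summed CPM of marker genes in the same 12 libraries, groups in color. Icam1 is highest and Itgb7 lowest in NoTumor-CD40 library 3, which has the largest sum of mature dendritic cell markers (36250 CPM), and the 3 libraries with the most Itgam are those with neutrophil sums of 22.7 to 34.3 CPM.

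Esam, an adhesion molecule of the immunoglobulin family known from endothelial junctions, also rose with the agonist in mice without tumor, to 2.82 times its level without agonist. It had 54.2, 33.8 and 65.3 CPM in the NoTumor-CD40 libraries, against 26.7, 14.5 and 13.1 CPM in the NoTumor-NoCD40 libraries. In tumor-bearing mice it had 27.3, 37.8 and 28.5 CPM with the agonist, against 34.9, 18.2 and 37.7 CPM without it. The groups without tumor did not overlap and those with tumor did. The log2 fold change was 1.495 ± 0.334 without tumor (SE, adjusted p = 0.0425, edgeR) and 0.05 ± 0.33 with tumor (adjusted p = 0.98). The interaction was -1.45 ± 0.47, with an unadjusted p of 0.00781 and an adjusted p of 0.495 (edgeR).

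The call of Esam held in 4 of the 12 leave-out fits (without NoTumor-CD40 library 2, NoTumor-NoCD40 library 1, or Tumor-NoCD40 library 2 or 3). With any of the other 8 left out it was lost, with values from 1.28 to 1.88 over all 12 and adjusted p-values up to 0.24. Of 10 other settings 4 kept the call, among them DESeq2 (adjusted p = 0.0012) and edgeR with no filter on low counts (adjusted p = 0.0153). The call was lost with edgeR's other dispersion setting (adjusted p = 0.053) and in a fit of the 2 groups alone (adjusted p = 0.0574). Within the 2 shared prefixes the log2 ratio of Esam was 1.02 and 1.22, and with the prefix as a block its call was lost (1.20, adjusted p = 0.152). Its order followed the mature markers in 9 of the 12 pairs of libraries. The 10 endothelial markers, 5 of them under 1 CPM on average, summed to 31.7 to 54.1 CPM in NoTumor-CD40 and 28.8 to 33.8 CPM in NoTumor-NoCD40, and to 51.4 to 96.4 CPM in Tumor-CD40 and 23.1 to 43.2 CPM in Tumor-NoCD40. Their part in Esam was not tested.

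The TPM of Esam depends on which transcripts are summed. Esam-206, a transcript of 216 bases annotated for nonsense-mediated decay, held 84.4% of the gene's TPM over the 12 libraries but 3.65% of its counts. It ranged from 0 in NoTumor-NoCD40 library 3 to 132.6 TPM in NoTumor-CD40 library 2. The coding transcript Esam-201 had 13.9, 8.67 and 20.9 TPM in NoTumor-CD40, against 6.34, 3.85 and 4.02 TPM in NoTumor-NoCD40, and held 92.2% of the counts. On the counts of Esam-201 alone the difference was 1.45 (adjusted p = 0.0454, edgeR). Summed TPM gave 2.33 on the log2(TPM + 1) scale, more than 1.5 times the count value, with an adjusted p of 0.363 (limma).

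**Figure D5:**
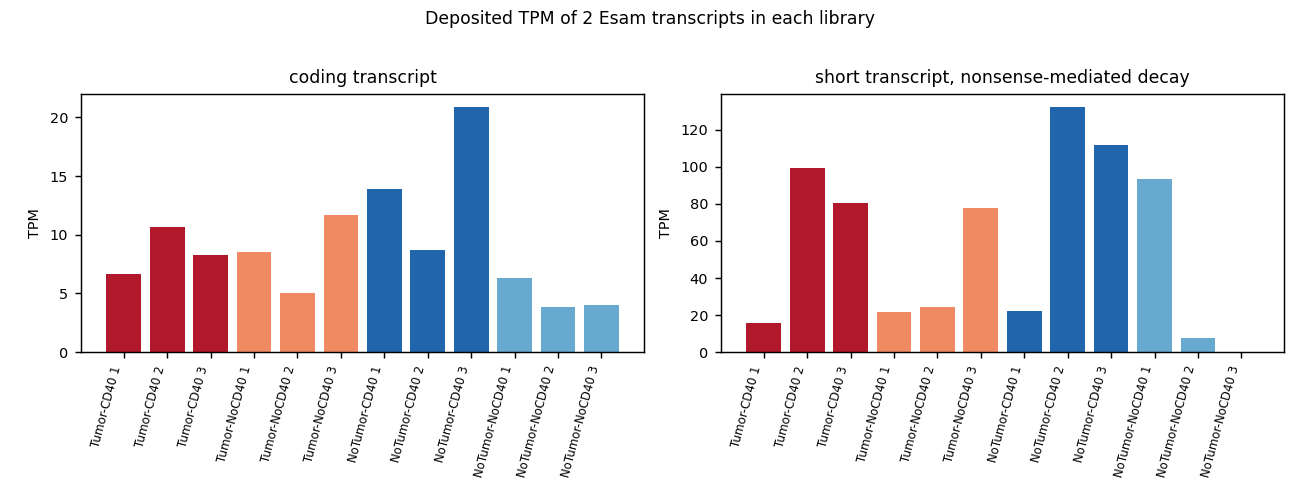
Deposited TPM of 2 Esam transcripts in each of the 12 libraries (bars, groups in color, axes from 0). Esam-201 is highest in NoTumor-CD40 library 3 at 20.9 TPM, while the short Esam-206 ranges from 0 in NoTumor-NoCD40 library 3 to 132.6 TPM in NoTumor-CD40 library 2.

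The leukocyte integrin subunits Itgal, Itgax and Itgb2 varied widely within groups, and none passed the threshold in any comparison. Itgb2 had 227, 251 and 197 CPM in Tumor-CD40, against 202, 497 and 163 CPM in Tumor-NoCD40. In mice without tumor Itgb2 had 180, 342 and 106 CPM with the agonist, against 319, 447 and 407 CPM without it. Every group overlapped with its counterpart, and Tumor-NoCD40 library 2 and NoTumor-CD40 library 3 were the extremes of all 12. The log2 fold change of Itgb2 with the agonist was -0.90 ± 0.41 without tumor (adjusted p = 0.26, edgeR) and -0.35 ± 0.41 with tumor (adjusted p = 0.849).

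Itgal had 119, 223 and 63.3 CPM in NoTumor-CD40, against 200.0, 341 and 302 CPM in NoTumor-NoCD40, a log2 fold change of -1.06 ± 0.39 (adjusted p = 0.187, edgeR). Only NoTumor-CD40 library 2 reached into the range of the untreated libraries. With each library left out in turn the difference of Itgal passed in 1 of 12 fits, without NoTumor-CD40 library 2 (-1.63, adjusted p = 0.0267). Without library 3 of that group it was -0.72 (adjusted p = 0.569). With tumor Itgal had 184, 146 and 209 CPM under the agonist, against 145, 338 and 189.8 CPM without it (-0.32 ± 0.39, adjusted p = 0.86). Itgax had 223, 358 and 205 CPM in Tumor-CD40, against 188, 459 and 89.6 CPM in Tumor-NoCD40, and 252, 404 and 102 CPM in NoTumor-CD40, against 289, 377 and 353 CPM in NoTumor-NoCD40. Its agonist difference was 0.09 with tumor, with a 95% interval from -1.07 to 1.26, and -0.43 without, with an interval from -1.59 to 0.73.

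Itgb7 pairs with Itgae or with Itga4, a subunit that binds vessel ligands. It had 131, 247 and 61.7 CPM in NoTumor-CD40, against 218, 367 and 357 CPM in NoTumor-NoCD40 (-1.10 ± 0.43, adjusted p = 0.211, edgeR). Here too only NoTumor-CD40 library 2 lay within the untreated range. The difference of Itgb7 passed in 1 of 12 leave-out fits, without that library (-1.70, adjusted p = 0.0379), and was -0.73 without library 3 of the group (adjusted p = 0.604). With tumor Itgb7 had 157, 166 and 140 CPM under the agonist, against 187, 366 and 119 CPM without it (-0.54 ± 0.43, adjusted p = 0.756). Itgae had 118, 95.6 and 109 CPM in Tumor-CD40, against 86.6, 228 and 44.8 CPM in Tumor-NoCD40. In NoTumor-CD40 it had 77.1, 113 and 24.1 CPM, against 73.8, 123 and 105 CPM in NoTumor-NoCD40. Its groups overlapped in every comparison, and the largest of its 4 pairwise log2 differences was 0.59 ± 0.52 for the tumor with agonist (adjusted p = 0.74).

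Within groups Itgax, Itgb2 and Itgb7 mostly ran against the mature dendritic cell markers, and Itgae and Itgal less so. Itgax, Itgb2 and Itgb7 had the opposite order to those markers in 10 of the 12 pairs of libraries of a group, Itgae and Itgal in 8 of 12 and Itgam in 7 of 12. The pairs of a group share libraries and are not independent, and the share over all genes was not counted. The 12 cDC1 markers summed to 12060 CPM in Tumor-NoCD40 library 2, against 2061 CPM in library 3 of the same group and 2613 CPM in NoTumor-CD40 library 3. The cells' part in these differences was not tested. The genes nearest in pattern, by root mean square difference, were H2-Eb1 for Itgax (0.127), Rab39 for Itgb2 (0.104), Anxa6 for Itgb7 (0.109), Fasn for Itgal (0.183) and Adgre5 for Itgae (0.288).

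A scaling of the whole library leaves the ratios of partner subunits unchanged. The coding TPM of Itgal, Itgam and Itgax together was 0.751 to 1.26 times that of Itgb2 over the 12 libraries, while Itgb2 itself spanned 22.6 to 77.1 TPM. Singly, Itgal was 0.0991 to 0.377 times, Itgax 0.396 to 1.13 times and Itgam 0 to 0.0281 times Itgb2. These ratios take 1 coding transcript per gene and so also depend on how counts were divided among transcripts. The lowest Itgal ratio, in NoTumor-CD40 library 1, came where the transcript used held 21.9% of the gene's TPM. In NoTumor-NoCD40 library 1 the Itgam transcript used was at 0, while another coding transcript, Itgam-201, had 0.364 TPM. Itgae over Itgb7 was 0.714, 0.515 and 0.713 in Tumor-CD40, against 0.45, 0.601 and 0.364 in Tumor-NoCD40. It was 0.529, 0.401 and 0.328 in NoTumor-CD40, against 0.306, 0.317 and 0.257 in NoTumor-NoCD40. All 3 libraries with neither tumor nor agonist lay below the other 9. The ratio was formed after the values had been seen and was given no test. Itga4, the other partner of Itgb7, had 351, 450 and 390 CPM in Tumor-CD40, 322, 383 and 285 CPM in Tumor-NoCD40, 422, 391 and 453 CPM in NoTumor-CD40 and 295, 289 and 310 CPM in NoTumor-NoCD40.

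Itgam was low and was carried by 3 libraries. It had 6.23, 2.06 and 7.33 CPM in Tumor-CD40, against 2.15, 2.75 and 1.71 CPM in Tumor-NoCD40. In mice without tumor it had 6.21, 1.92 and 1.86 CPM with the agonist, against 3.06, 1.42 and 2.21 CPM without it. Library 1 of each agonist group and library 3 of Tumor-CD40 stood above the other 9. The log2 fold change with tumor was 1.25 ± 0.58 (adjusted p = 0.499, edgeR) and without tumor 0.57 ± 0.62 (adjusted p = 0.663). Without NoTumor-CD40 library 1 the difference without tumor turned to -0.21. Over 10 other settings, the value of Itgam ran from 0.485 to 3.17 with tumor and from -0.014 to 1.23 without, the highest of each on the counts of its coding transcript alone, and none passed. The same 3 libraries had the most neutrophil marker RNA: the 10 markers, Camp among them at 0 everywhere, summed to 28.0, 4.42 and 22.7 CPM in Tumor-CD40 and 34.3, 2.67 and 3.05 CPM in NoTumor-CD40, against 1.11 to 5.20 CPM in the libraries without agonist. The part of neutrophils in Itgam was not tested.

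Cdh1, which holds cells together by binding itself and is the ligand of the Itgae-Itgb7 pair, had 2.86, 1.36 and 1.31 CPM in Tumor-CD40, against 4.13, 1.09 and 5.38 CPM in Tumor-NoCD40. In mice without tumor it had 3.37, 1.53 and 1.98 CPM in NoTumor-CD40, against 4.94, 1.88 and 0.656 CPM in NoTumor-NoCD40. The groups overlapped in both pairs, and the agonist differences of -0.95 ± 0.70 with tumor and -0.14 ± 0.71 without did not pass (adjusted p = 0.719 and 0.937, edgeR). Within groups its order followed the mature dendritic cell markers in 10 of 12 pairs.

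The rest of the adhesion machinery was read from 6 lists chosen with earlier results of these data known. Among the other integrin alpha subunits, 12 of 13 were tested, 1 rose with the agonist without tumor and 0 with tumor. Over all genes tested, 1.36% rose without tumor and 116 of 18095 with tumor. The riser was Itgav, part of integrins that bind fibronectin and vitronectin. It had 80.7, 69.8 and 112 CPM in NoTumor-CD40, against 41.2, 41.7 and 43.6 CPM in NoTumor-NoCD40, without overlap (1.05 ± 0.19, adjusted p = 0.0151, edgeR). With tumor it had 61.1, 58.1 and 56.1 CPM under the agonist, against 35.5, 46.3 and 40.1 CPM without it, and averaged over both states the change was 0.79 ± 0.13 (adjusted p = 0.00518). The averaged call held in all 12 leave-out fits. The call without tumor held in 8 of 12 and was lost without NoTumor-CD40 library 3 or any 1 of the NoTumor-NoCD40 libraries (adjusted p up to 0.11). It was also lost with the title prefix as a block (1.01, adjusted p = 0.0873). On log2(TPM + 1) with limma both calls of Itgav were lost, at 0.85 without tumor (adjusted p = 0.454) and 0.50 averaged (adjusted p = 0.562).

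Among 25 other immunoglobulin-like adhesion molecules, 23 were tested and 1 rose with the agonist without tumor (against the same 1.36%), namely Nectin2, a ligand of activating and inhibitory receptors on T and NK cells. It had 11.1, 11.9 and 14.6 CPM in NoTumor-CD40, against 1.19, 2.07 and 1.15 CPM in NoTumor-NoCD40 (3.09 ± 0.41, adjusted p = 0.00355, edgeR). In tumor-bearing mice it had 8.35, 11.1 and 9.39 CPM under the agonist, against 6.49, 4.59 and 2.25 CPM without it. Its calls without tumor and averaged (2.11 ± 0.27, adjusted p = 0.00121) held in all 12 leave-out fits. With limma on log2(TPM + 1) the call of Nectin2 without tumor was lost (1.46, adjusted p = 0.106). Alcam, the ligand of the T cell receptor CD6, was lower in the average (-0.53 ± 0.13, adjusted p = 0.044, edgeR), with 38.5, 39.5 and 33.5 CPM in Tumor-CD40, against 63.2, 71.9 and 51.4 CPM in Tumor-NoCD40. In mice without tumor it had 53.8, 72.8 and 54.3 CPM under the agonist, against 69.7, 82.1 and 73.1 CPM without it. The call of Alcam held in only 2 of the 12 leave-out fits (without NoTumor-CD40 library 2 or Tumor-NoCD40 library 3) and was lost with any of the other 10 left out (adjusted p up to 0.141), and it was lost on log2(TPM + 1) with limma (-0.44, adjusted p = 0.271).

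The other 4 lists gave no call in any of the 6 comparisons by edgeR: integrin beta subunits (6 of 6 tested), integrin activation and linkage (25 of 25, such as talins and kindlins), cadherins and junction proteins (17 of 22) and selectins with their ligands (11 of 14). At an unadjusted p under 0.05 their counts for the agonist without tumor were, in that order, 2, 5, 2 and 4, and with tumor 2, 2, 9 and 1, against 18.4% of all genes without tumor and 9.96% with tumor. Their median log2 fold changes without tumor were 0.44, 0.12, 0.40 and -0.16, and with tumor 0.31, -0.06, -0.11 and 0.06. For the other alpha subunits the medians were -0.07 without tumor and 0.40 with tumor, and for the immunoglobulin-like molecules 0.40 and 0.04.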

How the data were processed

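Expected counts per transcript (estimated counts, not normalized) and TPM per transcript were deposited by the authors for 12 libraries; per the submitters' processing notes they used Salmon and mm10, with the version, the annotation and the strand setting not given in the sources used here. Per the labels' protocols the library kit was directional. With GENCODE M21 on GRCm38, 136176 of 136288 transcripts were assigned to genes, summed and rounded. R 4.3.3 with edgeR 4.0.16 was used: TMM normalization, filterByExpr (minimum count 10, minimum total 15; 18095 genes kept), a model of 4 groups over 12 libraries, two-sided quasi-likelihood F tests (legacy = FALSE) and Benjamini-Hochberg adjustment. The SE is the log2 fold change over the root of F. The common biological coefficient of variation was 58.4%. The test was tried on simulated counts, with the outcome not given here. Alternatives used DESeq2 1.42.0 and limma 3.58.1 on log2(TPM + 1) and log2(TPM + 0.1).

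The members and lists were chosen with earlier results of these data known. Named genes are all members, pathway genes past the threshold (up to 4 per list) and the genes nearest in pattern among those averaging at least 5 CPM. Libraries sharing a title prefix deviated together in the 2 tumor groups (correlations of 0.162 to 0.255 over 3 pairs, against -0.273 to 0.0889 for other prefixes). Deviations were taken from each group's own mean, which lowers the other correlations when those of a shared prefix are high. These values therefore do not establish pairing. The main fit has no term for the prefix, and a fit with the prefix as a block is given as an alternative. Promoter windows came from RefSeq. A marker of the Langerhans cell list is not reported here and was left out of that sum.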

Additional observations from a re-analysis of the deposited data

How the results depend on the processing

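Over the alternatives, 44 of 1397 log2 fold changes changed sign, and 0 of these had passed the threshold. Each count below gives the genes past the threshold, with the members among them where their number moved. For the agonist without tumor the count was 401 with no filter on low counts, 923 with DESeq2, 31 (0 members) and 29 (0 members) with limma on log2(TPM + 1) and log2(TPM + 0.1), and 173 (0 members) in a fit of the 2 groups alone, while edgeR with legacy = TRUE left 1 member. For the agonist with tumor it was 200 with no filter, 61 with legacy = TRUE, 314 with DESeq2, 29 (0 members) and 21 (0 members) with limma, and 25 (0 members) in the 2 groups alone. Averaged, it was 954 (3 members) with DESeq2 and 133 (0 members) and 149 (0 members) with limma, with 2 members under no filter. For the tumor without agonist it was 1 with no filter and 24 with DESeq2. For the tumor with agonist it was 89 with no filter, 0 with legacy = TRUE, 161 with DESeq2, 12 and 6 with limma, and 3 in the 2 groups alone. The interaction gave 16 with DESeq2 and 2 with limma on log2(TPM + 1). The coding transcript alone, added after seeing the data, left 0 members with limma in all 3 agonist comparisons.

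With 1 library left out in turn, the count ran from 22 to 947 (0 to 5 members) for the agonist without tumor, from 26 to 226 (0 to 1) with tumor and from 221 to 870 (1 to 5) averaged. It ran from 0 to 2 for the tumor without agonist and from 0 to 71 with agonist. Log2 fold changes that changed sign on leaving out a library ranged as follows. For the agonist without tumor, Itgam ran from -0.21 to 0.87 and Cdh1 from -0.58 to 0.83. For the agonist with tumor, Itgae ran from -0.54 to 0.71, Itgal from -0.55 to 0.10, Itgax from -0.30 to 0.92, Itgb2 from -0.63 to 0.30, Itgb7 from -0.84 to 0.0099, Icam1 from -0.13 to 0.29 and Esam from -0.22 to 0.25. Averaged, Itgae ran from -0.58 to 0.11 and Itgax from -0.42 to 0.24. For the tumor without agonist, Itgae ran from -0.62 to 0.65 and Itgam from -0.25 to 0.28. For the tumor with agonist, Itgax ran from -0.30 to 0.58, Itgb2 from -0.19 to 0.67, Itgb7 from -0.27 to 0.69 and Cdh1 from -0.77 to 0.055. The interaction of Itgae ran from -0.066 to 1.21.

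Other changes of sign were small. With limma on log2(TPM + 1), Itgam was -0.014 and Cdh1 0.049 for the agonist without tumor, Itgae 0.15 (0.13 on its coding transcript) with tumor, and Cdh1 0.014 averaged and 0.11 for the tumor with agonist. With limma on log2(TPM + 0.1), Cdh1 was 0.25 without tumor, 0.094 averaged and 0.21 for the tumor with agonist, and Itgae 0.17 for the agonist with tumor. Itgam for the tumor without agonist was 2.4e-05 with DESeq2's size factors, 0.0032 with no filter and 0.0016 with DESeq2.

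With the title prefix as a replicate block, the count was 48 (0 members) for the agonist without tumor, 229 (1 member) with tumor, 437 averaged, 0 for the tumor without agonist, 83 with agonist and 0 for the interaction. In that blocked fit Itgae was 0.21 for the agonist with tumor, Itgax 0.091 averaged, and Itgam 0.025 and Cdh1 -0.039 for the tumor without agonist; Icam1, Esam and Itgav lost their calls without tumor (0.90, 1.20 and 1.01, adjusted p = 0.103, 0.152 and 0.0873). NoTumor-NoCD40 library 3 has a prefix of its own, so that the block fits it exactly and leaves it out in effect. Same-prefix libraries correlated in their deviations at 0.181 to 0.201 over 2 pairs without tumor and 0.224 to 0.35 over 2 pairs for the tumor without agonist. Libraries of other prefixes overlapped these (-0.425 to 0.291 and -0.475 to 0.326), which does not establish pairing there. For the tumor with agonist the values were 0.0393 to 0.179 over 3 pairs, above those of other prefixes (-0.127 to -0.00451). These low correlations do not establish pairing either. The cause of these shifts was not tested. Itgam and Cdh1 had the fewest counts of the members, between 16 and 185 in a library.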

Other observations

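Markers of other cell types were also summed in normalized CPM. Whether their RNA came from such cells or from the cDC1 was not tested. Sums of 9 markers of the other conventional dendritic cells (cDC2) lay between 169 and 298 CPM in all 12 libraries. T cell markers (11 genes) summed to 156 to 443 CPM in Tumor-CD40, 134 to 845 CPM in Tumor-NoCD40, 186 to 241 CPM in NoTumor-CD40 and 156 to 278 CPM in NoTumor-NoCD40, and NK cell markers (6 genes) to 10.03 to 102 CPM. Plasmacytoid dendritic cell markers (8 genes) summed to 250 to 371 CPM in Tumor-CD40, against 135 to 154 CPM in Tumor-NoCD40. Of the 8 genes, 5 lay above 0 in that comparison, with a median log2 fold change of 0.24. Siglech, 1 of the 8, overlapped, with 4.46, 0.826 and 2.26 CPM in Tumor-CD40, against 5.62, 2.03 and 0.763 CPM in Tumor-NoCD40. Monocyte markers (8 genes) summed to 97.7 to 479 CPM, macrophage markers (12 genes, Vsig4 at 0 everywhere) to 19.6 to 131 CPM and plasma cell markers (7 genes) to 57.2 to 283 CPM. Fibroblast or reticular markers (8 genes) summed to 5.83 to 20.7 CPM and keratins of epithelial or tumor cells (6 genes) to 0.289 to 11.2 CPM.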
